A study of Mus musculus with 12 samples.

Results

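The genes described here are 33 mouse genes of glucose breakdown and of the response to low oxygen: 19 for glucose uptake, glycolysis and the fate of pyruvate and lactate, and 14 for hypoxia-inducible factor 1 (HIF-1), its hydroxylases and its other target genes. They were taken by symbol from a list of glycolysis and hypoxia genes. This list and the further gene lists below were chosen with earlier results of these data known. Comparisons of their shares with those of all genes are therefore not independent of these data. Each of the 33 symbols matched 1 of the 43432 gene identifiers in the RNA-sequencing tables, and 31 passed the filter on low counts and were tested. The study measured mRNA in BV2, a mouse microglial line that is immortalized, in 6 groups of 2 libraries. The groups were untreated cells, cells given lipopolysaccharide (LPS, an endotoxin that activates the receptor TLR4) at 100 ng/mL, and cells given the same LPS 1 h after 6-gingerol at 10 or 30 µM or after 6-shogaol at 10 or 30 µM. All groups had at least 4 h in serum-free medium from 24 h after seeding. Both compounds are pungent phenols of ginger, and every group that received one also received LPS. The time from LPS to harvest is not given in the sources used here.

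Glycolysis splits glucose into pyruvate in the cytosol, and lactate dehydrogenase turns pyruvate into lactate, which leaves the cell through monocarboxylate transporters. HIF-1 is a transcription factor made of an oxygen-regulated subunit, encoded by Hif1a, and a constant partner, ARNT. In oxygen the prolyl hydroxylases encoded by the Egln genes mark the subunit for destruction, and without hydroxylation it binds short DNA words with the core RCGTG near genes of glucose use, blood vessel growth, mitophagy and collagen processing. Macrophages and microglia are known to shift toward glycolysis when LPS activates them, and HIF-1α protein is stabilized in that state. These are background facts, and the libraries measured mRNA only, not protein, lactate or flux.

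Levels are given as CPM (expected counts relative to a common library total after TMM scaling), as the value in the first and then the second library of a group, or as mean ± SD with n = 2. Changes are log2 fold changes with a standard error (SE), and a call means that the Benjamini-Hochberg adjusted p over the 12705 genes tested was under 0.05. No label says that replicates were separate cultures, so p-values measure only the spread between these libraries. The libraries held 16534960 to 21179867 expected counts each, and the lowest level of a tested member in any library was 8.62 CPM, for Ankrd37. In whole cultures, fewer cells of a kind and less RNA per cell cannot be told apart. The 9 microglial markers summed to between 1595 and 1886 CPM, with P2ry12, a homeostatic microglial receptor, under 1 CPM in every library. Neuronal markers summed to at most 0.11 CPM and lymphocyte markers to at most 0.154 CPM. Astrocyte markers summed to between 6.09 and 16.8 CPM, and 4 of the 5, all but Gja1, were under 1 CPM in every library.

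The members tended to differ together between the replicates of a group. Of 31 tested members, 25 were higher in the first LPS library than in the second and 26 in the first 30 µM 6-shogaol library, against 8 in the first 10 µM 6-shogaol library and 8 in the first untreated library. Over all genes tested the share higher in the first library ran from 48.6% to 51.1%. The coefficient of variation between replicates had a median over members from 3.18% with 10 µM 6-shogaol to 10.3% with 30 µM 6-shogaol, and the largest was 27.8%, for Ldha with 10 µM 6-gingerol. The part of these shared replicate differences in the results was not tested beyond leaving out each library in turn.

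The largest differences among the members were decreases of HIF-1 target mRNAs in cells given LPS with 30 µM 6-shogaol. Against LPS alone, 9 of 31 members fell and 2 rose, where 25.4% of all genes were called (12.6% higher and 12.8% lower). Of the 13 tested hypoxia members 7 fell, none rose and all 13 had a log2 fold change below 0, with a median of -0.34 against -0.002 for all genes. Of the 18 tested members for glucose uptake, glycolysis and lactate, 2 fell and 2 rose, with a median of 0.01. LPS alone raised 3 members and lowered 3, where 7.66% of all genes were higher and 4.16% lower. With either dose of 6-gingerol, and with 10 µM 6-shogaol, no member was called against LPS.

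**Figure D1:**
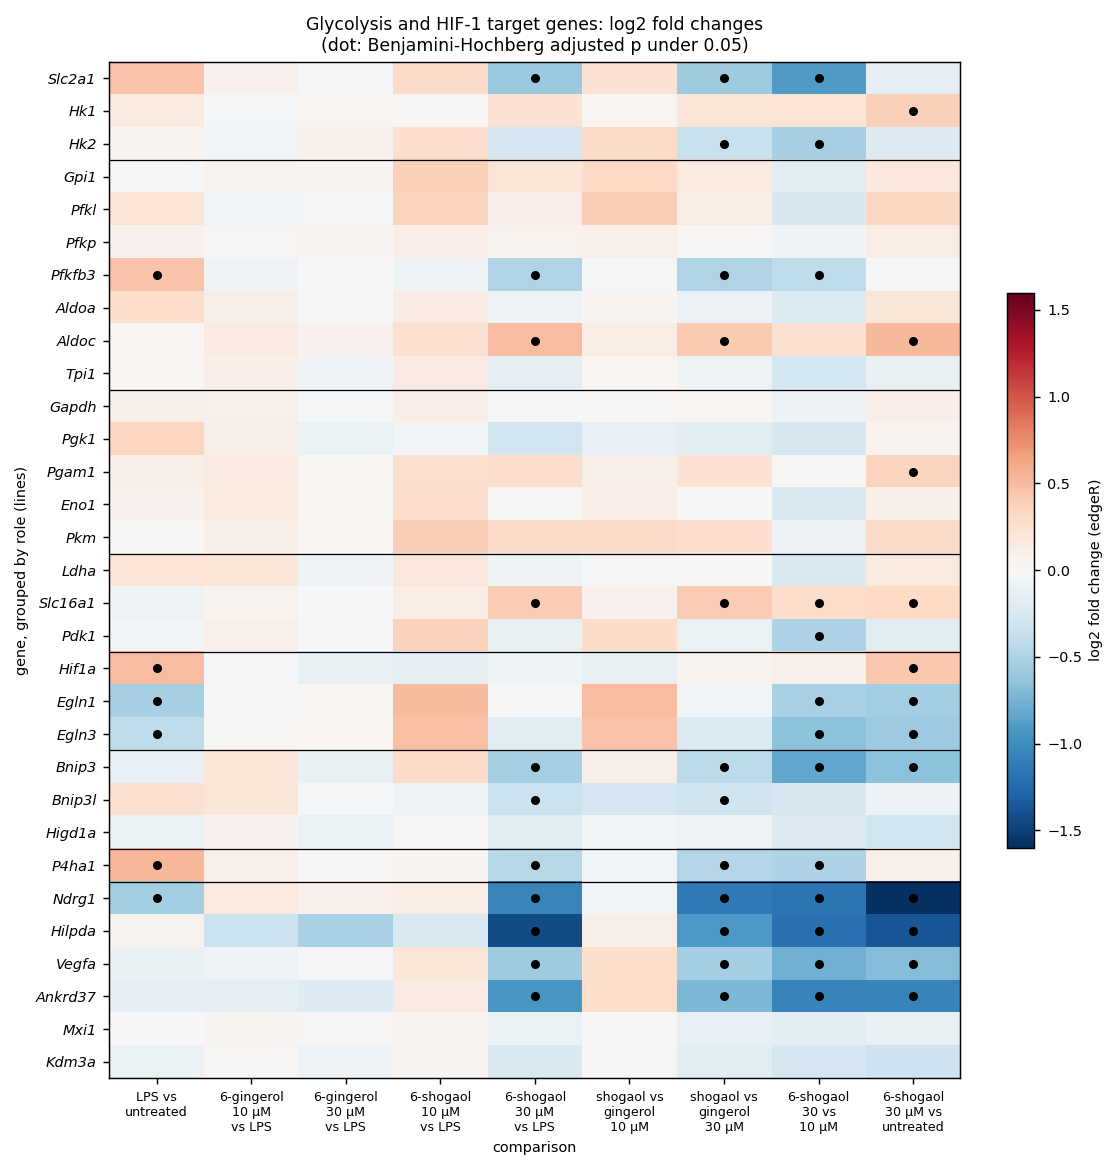
Log2 fold changes (colour scale) of the 31 tested members (rows, grouped by role) in 9 comparisons (columns), with a dot where the edgeR adjusted p was under 0.05. Dots are in the LPS column (6) and the 4 columns with 30 µM 6-shogaol (11, 12, 13 and 12), and the darkest cells are those of Ndrg1, Hilpda and Ankrd37.

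Promoter sequence is shown for 4 members that fell with 30 µM 6-shogaol, because the HIF core word is short enough to be read by eye. These 4 stretches all hold a match, while Hilpda and Vegfa, left out, had none in theirs, so the display favours matches. RefSeq windows of 300 bases, 250 of them before the transcription start (GRCm38.p6), were found for 31 of the 33 members, and all but Ndrg1 and Bnip3l had one. The words ACGTG and GCGTG were searched on both strands, so that CACGT and CACGC also count, and overlapping matches were counted once. Either word was in the first listed window of 24 of 31 members (77.4%), and in 43.8% of the 27025 genes with a window. It was in 6 of the 7 windows of members that fell with 30 µM 6-shogaol (85.7%) and in 18 of the 24 others (75.0%). A match is a run of letters and was not tested as a binding site. The 4 stretches below read 5′ to 3′ on the gene's strand, exon bases of the annotation are left out, and capitals mark the matches.
Ankrd37: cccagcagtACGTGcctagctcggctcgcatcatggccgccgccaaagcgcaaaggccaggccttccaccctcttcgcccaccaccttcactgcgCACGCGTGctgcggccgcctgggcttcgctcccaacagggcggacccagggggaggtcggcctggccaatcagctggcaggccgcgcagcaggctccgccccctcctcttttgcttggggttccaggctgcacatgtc
Slc2a1: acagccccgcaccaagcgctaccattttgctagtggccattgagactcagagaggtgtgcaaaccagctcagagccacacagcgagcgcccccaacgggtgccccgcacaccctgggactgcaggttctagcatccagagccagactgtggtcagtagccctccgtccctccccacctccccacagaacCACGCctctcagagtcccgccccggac
Bnip3: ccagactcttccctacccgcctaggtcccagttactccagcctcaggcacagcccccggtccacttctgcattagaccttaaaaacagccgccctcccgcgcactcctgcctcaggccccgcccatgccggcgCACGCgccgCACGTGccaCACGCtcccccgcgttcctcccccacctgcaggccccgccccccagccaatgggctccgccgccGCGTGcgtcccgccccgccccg
P4ha1: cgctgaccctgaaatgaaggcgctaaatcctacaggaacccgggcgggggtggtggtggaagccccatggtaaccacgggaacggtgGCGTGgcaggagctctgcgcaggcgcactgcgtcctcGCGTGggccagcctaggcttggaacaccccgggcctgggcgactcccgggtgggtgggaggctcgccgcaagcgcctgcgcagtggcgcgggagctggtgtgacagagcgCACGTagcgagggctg
The Ankrd37 stretch is chr8:45999868-46000100 on the - strand, inside the bounds of the longer gene model. Slc2a1 is chr4:119108495-119108710 on the + strand, Bnip3 chr7:138909520-138909756 on the - strand, and P4ha1 chr10:59323046-59323295 on the + strand. Within 1 short stretch Bnip3 holds CACGC, the palindrome CACGTG and CACGC again, starting at -117, -108 and -99 relative to the transcription start, and GCGTG at -35. P4ha1 holds GCGTG at -163 and -126 and CACGT at -16. Slc2a1 holds CACGC at -61, and an ACGTG at -36 overlaps the end of the printed run. Ankrd37 holds ACGTG at -241 and the overlapping pair CACGCGTG at -155, and an ACGTG at -6 lies past the printed run. The first window of Hilpda held a single match, GCGTG after the start at base 28, and its other window held 3. Vegfa, which also fell, is not shown: its first window held no match and its other window held 2. Pfkfb3 fell too and is not shown, and its first window held 1 match.

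Glucose enters these cells through facilitative transporters and is trapped by hexokinases. Slc2a1 (chr4:119108711-119137983, + strand) encodes GLUT1, the main transporter of activated macrophages and a HIF-1 target. Slc2a1 was at 109.8 and 145 CPM untreated, at 187 and 163 under LPS alone, at 199.96 and 167 after 6-gingerol at 10 µM, at 185 and 158 after 6-gingerol at 30 µM, at 206 and 224 after 6-shogaol at 10 µM, and at 131 and 99.3 after 6-shogaol at 30 µM. The 30 µM 6-shogaol libraries lay below every library that received LPS in the other groups and overlapped the untreated ones. Slc2a1 fell from 175 ± 17.0 CPM with LPS to 115 ± 22.7 with 30 µM 6-shogaol (log2 fold change -0.60, SE 0.15, edgeR adjusted p = 0.00994). That call was lost without the first LPS library (-0.49, adjusted p = 0.0983) or the second 30 µM 6-shogaol library (-0.41, adjusted p = 0.131). Against untreated cells the LPS value was 0.45 (95% interval 0.13 to 0.78, edgeR adjusted p = 0.0689), both LPS libraries lay above both untreated ones, and DESeq2 called it (0.47, adjusted p = 0.0264).

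Hk2 (chr6:82725025-82774454, - strand) encodes the inducible hexokinase bound to mitochondria, and Hk1 (chr10:62268855-62379908, - strand) the constitutive one. Hk2 was at 109 and 135 CPM untreated, at 132 and 122 under LPS alone, at 120.5 and 125 after 6-gingerol at 10 µM, at 141 and 129 after 6-gingerol at 30 µM, at 146 and 159 after 6-shogaol at 10 µM, and at 116 and 95.2 after 6-shogaol at 30 µM. Hk1 was at 97.5 and 111 CPM untreated, at 114 and 117 under LPS alone, at 111 and 117 after 6-gingerol at 10 µM, at 124 and 114 after 6-gingerol at 30 µM, at 111 and 123 after 6-shogaol at 10 µM, and at 146 and 126 after 6-shogaol at 30 µM. For Hk2 both 10 µM 6-shogaol libraries were above, and both 30 µM libraries below, the LPS pair, and neither contrast with LPS passed (0.26, edgeR adjusted p = 0.441 and -0.27, edgeR adjusted p = 0.12). The 2 doses did differ for Hk2 (log2 fold change -0.53, SE 0.12, edgeR adjusted p = 0.00624). Without the second 10 µM 6-shogaol library (-0.47, adjusted p = 0.0807) or the second 30 µM 6-shogaol library (-0.40, adjusted p = 0.0985) that call was lost. Hk1 was highest with 30 µM 6-shogaol, where it rose against untreated (log2 fold change 0.39, SE 0.10, edgeR adjusted p = 0.0138) but was not called against LPS (0.23, edgeR adjusted p = 0.121). The Hk1 call was lost without the first untreated library (0.30, adjusted p = 0.0767) or the first 30 µM 6-shogaol library (0.28, adjusted p = 0.138), and it was also lost with library totals as the scale and with the compared groups fitted alone. Per length, Hk1 made up 25.4% ± 1.74 of the summed hexokinase TPM (abundance per transcript length) with LPS and 33.2% ± 1.14 with 30 µM 6-shogaol, and Hk3, which is no member, 55.7% ± 1.54 and 49.2% ± 0.875.

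In the upper part of glycolysis, Pfkfb3 (chr2:11471433-11554077, - strand) makes fructose-2,6-bisphosphate, the strongest activator of phosphofructokinase. Pfkfb3 was at 39.1 and 40.7 CPM untreated, at 54.5 and 54.6 under LPS alone, at 50.4 and 54.6 after 6-gingerol at 10 µM, at 55.1 and 54.1 after 6-gingerol at 30 µM, at 51.8 and 51.4 after 6-shogaol at 10 µM, and at 40.4 and 37.8 after 6-shogaol at 30 µM. The untreated and 30 µM 6-shogaol libraries, all between 37.8 and 40.7 CPM, lay below all 8 others, which were at 50.4 CPM or more. Pfkfb3 rose with LPS (log2 fold change 0.45, SE 0.096, edgeR adjusted p = 0.00497) and fell with 30 µM 6-shogaol against LPS (log2 fold change -0.48, SE 0.096, edgeR adjusted p = 0.002). Both calls were kept under every alternative run.

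Aldoc (chr11:78322968-78327781, + strand) encodes the brain form of aldolase, and it moved the other way. Aldoc was at 59.1 and 67.8 CPM untreated, at 63.5 and 66.2 under LPS alone, at 72.5 and 69.5 after 6-gingerol at 10 µM, at 64.7 and 71.9 after 6-gingerol at 30 µM, at 75.2 and 78.7 after 6-shogaol at 10 µM, and at 97.9 and 84.5 after 6-shogaol at 30 µM. Both 30 µM 6-shogaol libraries were above all 10 others. Aldoc rose from 64.8 ± 1.89 CPM with LPS to 91.2 ± 9.53 (log2 fold change 0.49, SE 0.11, edgeR adjusted p = 0.00344), a call kept under every alternative. Aldoc remained a minor aldolase, since Aldoa made up 97.3% to 98.3% of the summed aldolase TPM in the 12 libraries.

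The remaining glycolytic enzymes were the most abundant members. Gapdh, with 3320 TPM on average over the 12 libraries, Aldoa with 2084 and Pgk1 with 1212 led the list. Gapdh was at 3403 and 3610.4 CPM untreated, at 3841 and 3675 under LPS alone, at 4336 and 3648 after 6-gingerol at 10 µM, at 3785 and 3618 after 6-gingerol at 30 µM, at 4089 and 3984 after 6-shogaol at 10 µM, and at 4123 and 3415 after 6-shogaol at 30 µM. Aldoa was at 1809 and 2208 CPM untreated, at 2528 and 2344 under LPS alone, at 2873 and 2329 after 6-gingerol at 10 µM, at 2522 and 2382 after 6-gingerol at 30 µM, at 2645 and 2705 after 6-shogaol at 10 µM, and at 2518 and 2094 after 6-shogaol at 30 µM. Pkm was at 1836 and 2238 CPM untreated, at 2138 and 1950.4 under LPS alone, at 2498 and 1864 after 6-gingerol at 10 µM, at 2219 and 1951 after 6-gingerol at 30 µM, at 2726 and 2633 after 6-shogaol at 10 µM, and at 2790.2 and 2250.4 after 6-shogaol at 30 µM. Gapdh (glyceraldehyde-3-phosphate dehydrogenase) and Aldoa (the muscle-type aldolase) were lowest in the first untreated library and highest in the first 10 µM 6-gingerol library. Pkm (pyruvate kinase) was above both LPS libraries in all 4 6-shogaol libraries, and was not called at 10 µM, 0.39 (95% interval 0.05 to 0.73, edgeR adjusted p = 0.379), nor at 30 µM, 0.30 (95% interval -0.03 to 0.64, edgeR adjusted p = 0.18). With no filter on counts Pkm was called at both doses (0.39, adjusted p = 0.044 and 0.30, adjusted p = 0.0457), and at 10 µM also with the compared groups alone (0.39, adjusted p = 0.0131). Of the 13 tested members called in none of the 9 comparisons, 10 were of glycolysis and lactate formation, namely Gpi1, Pfkl, Pfkp, Aldoa, Tpi1, Gapdh, Pgk1, Eno1, Pkm and Ldha. Gapdh, often used as a reference gene, had a log2 fold change of 0.10 with LPS, 0.10 with 10 µM and 0.00 with 30 µM 6-shogaol against LPS.

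Apart from Aldoc, Pgam1 (chr19:41911923-41918660, + strand), phosphoglycerate mutase, was the only one of the 12 enzymes from Gpi1 to Ldha called in a comparison. Pgam1 was at 1207 and 1426 CPM untreated, at 1405 and 1398 under LPS alone, at 1655 and 1447 after 6-gingerol at 10 µM, at 1459 and 1414 after 6-gingerol at 30 µM, at 1611 and 1698 after 6-shogaol at 10 µM, and at 1746 and 1616 after 6-shogaol at 30 µM. It rose with 30 µM 6-shogaol against untreated (log2 fold change 0.35, SE 0.12, edgeR adjusted p = 0.042). Leaving out the first untreated library (0.24, adjusted p = 0.215), the first 30 µM 6-shogaol library (0.30, adjusted p = 0.202) or the second 30 µM 6-shogaol library (0.43, adjusted p = 0.0696) ended the call, as did library totals as the scale and fitting the compared groups alone. Against LPS the value was 0.26 (95% interval 0.01 to 0.52, edgeR adjusted p = 0.125). Pgk1, phosphoglycerate kinase, was at 1694 and 1499 CPM untreated, 2223 and 1832 with LPS and 1723 and 1590.5 with 30 µM 6-shogaol, with log2 fold changes of 0.34 (95% interval 0.05 to 0.64, edgeR adjusted p = 0.129) for LPS and -0.29 (95% interval -0.58 to 0.00, edgeR adjusted p = 0.139) for 30 µM 6-shogaol against LPS. DESeq2 (0.36, adjusted p = 0.0331) and the fit with no filter on counts (0.34, adjusted p = 0.0327) called the Pgk1 value for LPS. Processed copies of Pgk1 and Pgam1 share sequence with them. Pgk1-rs7 held 1.90% to 2.15% of the TPM of its family and Pgam1-ps2 2.7% to 3.66%, and how the reads divide between copies is uncertain.

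Summed over the 12 enzymes from Gpi1 to Ldha, the TPM was 9452 and 12412 untreated, and 11454 and 11149 under LPS alone. It was 12683 and 10565 after 6-gingerol at 10 µM, 12767 and 11125 at 30 µM, 13590 and 14045 after 6-shogaol at 10 µM, and 13208 and 10996 at 30 µM. The 10 µM 6-shogaol pair was above every other library, and the untreated libraries lay further apart than any pair of group means. Over the 14 hypoxia members the sums were 895 and 841 with LPS, 959 and 1031 after 6-shogaol at 10 µM, and 699.9 and 679 at 30 µM, the lowest of the 12 libraries.

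**Figure D2:**
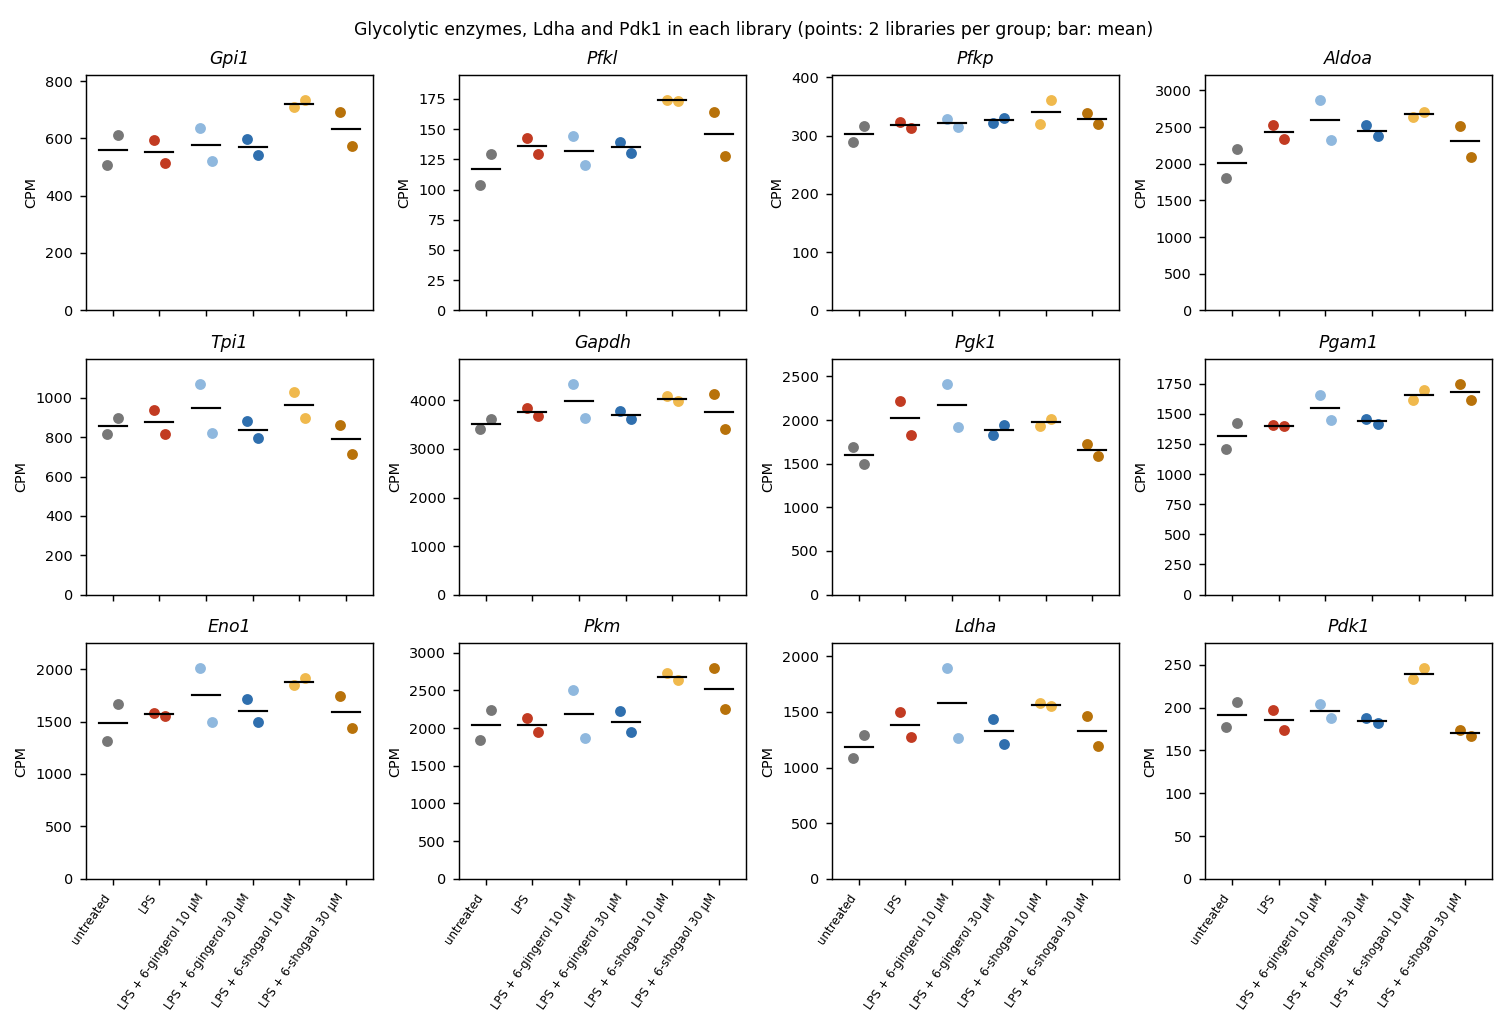
Level (CPM, linear axis from 0) of 10 glycolytic enzymes, Ldha and Pdk1 in each library, by group on the horizontal axis; points are the 2 libraries and the bar is their mean. The 10 µM 6-shogaol points are tightly paired, for instance Pfkl at 174 and 174 CPM and Pdk1 at 234 and 246 CPM, while the first 10 µM 6-gingerol library stands above its partner for Ldha (1891 against 1270 CPM).

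At the end of the pathway, Ldha makes lactate, Slc16a1 (MCT1) carries it across the membrane, and Pdk1 holds pyruvate back from mitochondria by inhibiting pyruvate dehydrogenase. Ldha was at 1084 and 1292 CPM untreated, at 1498 and 1273 under LPS alone, at 1891 and 1269.8 after 6-gingerol at 10 µM, at 1435 and 1215 after 6-gingerol at 30 µM, at 1581 and 1549.5 after 6-shogaol at 10 µM, and at 1461 and 1193 after 6-shogaol at 30 µM. The first 10 µM 6-gingerol library was the highest, and both 10 µM 6-shogaol libraries lay above the LPS and untreated pairs, while the LPS pair overlapped the untreated one and that of 30 µM 6-shogaol. No Ldha contrast was called, with log2 fold changes of 0.22 (95% interval -0.15 to 0.59, edgeR adjusted p = 0.485) for LPS, 0.18 (95% interval -0.19 to 0.54, edgeR adjusted p = 0.724) for 10 µM and -0.06 (95% interval -0.43 to 0.31, edgeR adjusted p = 0.832) for 30 µM 6-shogaol against LPS. Ldhb was at 0 in all 12 libraries.

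Slc16a1 (chr3:104638668-104658462, + strand) showed little spread. Slc16a1 was at 151 and 153 CPM untreated, at 147 and 140.1 under LPS alone, at 156 and 144 after 6-gingerol at 10 µM, at 147 and 140.5 after 6-gingerol at 30 µM, at 155 and 158 after 6-shogaol at 10 µM, and at 187 and 193 after 6-shogaol at 30 µM. Both 30 µM 6-shogaol libraries lay above all 10 others, which ran from 140.1 to 158 CPM. Slc16a1 rose against LPS from 144 ± 5.17 to 190.4 ± 4.11 CPM (log2 fold change 0.41, SE 0.088, edgeR adjusted p = 0.00335), and this call was kept under every alternative. Slc16a3 (MCT4), the HIF-responsive lactate exporter, had 0 to 4 reads per library, at most 0.222 CPM, and was not tested.

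Pdk1 was at 177 and 206 CPM untreated, at 197 and 174 under LPS alone, at 205 and 188 after 6-gingerol at 10 µM, at 187 and 182 after 6-gingerol at 30 µM, at 234 and 246 after 6-shogaol at 10 µM, and at 174 and 167 after 6-shogaol at 30 µM. The 10 µM 6-shogaol pair of Pdk1 (chr2:71873224-71903858, + strand) lay above all 10 other libraries, and the 30 µM pair overlapped the LPS pair. Pdk1 fell from 10 to 30 µM 6-shogaol (log2 fold change -0.49, SE 0.10, edgeR adjusted p = 0.00399), which narrowly missed the threshold without the second 10 µM 6-shogaol library (-0.46, adjusted p = 0.0518). Neither dose was called against LPS (0.37, edgeR adjusted p = 0.166 and -0.12, edgeR adjusted p = 0.44). Pdk1 made up 78.9% ± 0.21 of the TPM of the 4 pyruvate dehydrogenase kinases with 10 µM 6-shogaol and 69.6% ± 1.96 with 30 µM.

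Hif1a (chr12:73901375-73947530, + strand), the oxygen-regulated subunit itself, rose with LPS and was above its untreated level in every library given a compound. Hif1a was at 175 and 171 CPM untreated, at 233 and 255 under LPS alone, at 230.3 and 249 after 6-gingerol at 10 µM, at 219 and 231 after 6-gingerol at 30 µM, at 217 and 223 after 6-shogaol at 10 µM, and at 222 and 244 after 6-shogaol at 30 µM. All 10 libraries with LPS lay between 217 and 255 CPM, above both untreated ones. The rise with LPS (log2 fold change 0.50, SE 0.096, edgeR adjusted p = 0.00252) fell short of the threshold without the second LPS library (0.43, adjusted p = 0.054). With 30 µM 6-shogaol Hif1a differed from LPS by -0.07 (95% interval -0.27 to 0.14, edgeR adjusted p = 0.667), and it was still higher than in untreated cells (0.43, edgeR adjusted p = 0.0041). Of the 12 other tested hypoxia members, 7 fell in that same contrast.

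Egln1 (PHD2, chr8:124908587-124949324, - strand) and Egln3 (PHD3, chr12:54178981-54203860, - strand) hydroxylate HIF-α and are themselves known HIF-1 targets. Egln1 was at 58.1 and 76.7 CPM untreated, at 48.3 and 44.8 under LPS alone, at 44.2 and 49.2 after 6-gingerol at 10 µM, at 51.2 and 44.1 after 6-gingerol at 30 µM, at 65.7 and 66.1 after 6-shogaol at 10 µM, and at 50.5 and 41.8 after 6-shogaol at 30 µM. Egln3 was at 96.6 and 116 CPM untreated, at 84.5 and 76.5 under LPS alone, at 86.1 and 77.5 after 6-gingerol at 10 µM, at 88.1 and 76.7 after 6-gingerol at 30 µM, at 109 and 115 after 6-shogaol at 10 µM, and at 78.3 and 64.0 after 6-shogaol at 30 µM. For both genes the untreated and 10 µM 6-shogaol libraries were the high ones, and the LPS, 6-gingerol and 30 µM 6-shogaol groups overlapped each other. Egln1 and Egln3 fell with LPS (log2 fold change -0.54, SE 0.14, edgeR adjusted p = 0.0169, and log2 fold change -0.40, SE 0.12, edgeR adjusted p = 0.0439). The Egln1 call was lost without the second untreated library (-0.30, adjusted p = 0.185), the first LPS library (-0.59, adjusted p = 0.0676) or the second LPS library (-0.48, adjusted p = 0.159). The Egln3 call was lost without the second untreated library (-0.24, adjusted p = 0.275), the first LPS library (-0.48, adjusted p = 0.105) or the second LPS library (-0.33, adjusted p = 0.303), and also with DESeq2's size factors, the compared groups alone, a fragment length covariate and the authors' normalized table. With 30 µM 6-shogaol neither differed detectably from LPS (-0.01 (95% interval -0.31 to 0.28, edgeR adjusted p = 0.966) and -0.18 (95% interval -0.44 to 0.09, edgeR adjusted p = 0.323)). Both fell from 10 to 30 µM 6-shogaol (log2 fold change -0.52, SE 0.14, edgeR adjusted p = 0.0162, and log2 fold change -0.66, SE 0.12, edgeR adjusted p = 0.00181), and the Egln1 call was lost without the first 10 µM 6-shogaol library (-0.52, adjusted p = 0.0808), the second 10 µM 6-shogaol library (-0.52, adjusted p = 0.0959) or the second 30 µM 6-shogaol library (-0.39, adjusted p = 0.173).

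Bnip3 (chr7:138890836-138909519, - strand) and Bnip3l (chr14:66985239-67008877, - strand) encode receptors that mark mitochondria for removal by autophagy in hypoxia. Bnip3 was at 308 and 299.98 CPM untreated, at 305 and 251 under LPS alone, at 324 and 315 after 6-gingerol at 10 µM, at 242 and 271 after 6-gingerol at 30 µM, at 324 and 359.9 after 6-shogaol at 10 µM, and at 197 and 188 after 6-shogaol at 30 µM. Bnip3l was at 219 and 217 CPM untreated, at 269 and 247 under LPS alone, at 317 and 272 after 6-gingerol at 10 µM, at 255 and 251 after 6-gingerol at 30 µM, at 252 and 236 after 6-shogaol at 10 µM, and at 203 and 204 after 6-shogaol at 30 µM. Both 30 µM 6-shogaol libraries were the lowest of the 12 for each gene. Against LPS, Bnip3 fell (log2 fold change -0.53, SE 0.11, edgeR adjusted p = 0.00262) and so did Bnip3l (log2 fold change -0.34, SE 0.100, edgeR adjusted p = 0.0197). The Bnip3 call was lost without the first LPS library (-0.38, adjusted p = 0.0636). The Bnip3l call was lost without the first LPS library (-0.28, adjusted p = 0.167), the first 30 µM 6-shogaol library (-0.34, adjusted p = 0.0959) or the second 30 µM 6-shogaol library (-0.35, adjusted p = 0.0838). Higd1a, a small mitochondrial protein induced by hypoxia, was at 68.7 and 54.6 CPM with LPS and 57.6 and 50.4 with 30 µM 6-shogaol and was called nowhere (-0.19 (95% interval -0.46 to 0.08, edgeR adjusted p = 0.307)).

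P4ha1 (chr10:59323296-59373304, + strand) encodes the catalytic subunit of collagen prolyl 4-hydroxylase. P4ha1 was at 129 and 127 CPM untreated, at 189.9 and 179 under LPS alone, at 199.6 and 191 after 6-gingerol at 10 µM, at 188 and 186 after 6-gingerol at 30 µM, at 184 and 195 after 6-shogaol at 10 µM, and at 134 and 136 after 6-shogaol at 30 µM. The libraries formed 2 levels without overlap, untreated and 30 µM 6-shogaol between 127 and 136 CPM, and the other 8 between 179 and 199.6 CPM. P4ha1 rose with LPS (log2 fold change 0.53, SE 0.087, edgeR adjusted p = 0.000639) and fell with 30 µM 6-shogaol against LPS (log2 fold change -0.45, SE 0.087, edgeR adjusted p = 0.00153), and both calls were kept under every alternative. Against untreated cells the 30 µM 6-shogaol value was 0.08 (95% interval -0.11 to 0.27, edgeR adjusted p = 0.547). P4ha2 had 0 to 3 reads per library, at most 0.169 CPM, and was not tested.

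The other HIF-1 targets held the largest changes. Hilpda (chr6:29272488-29275446, + strand) encodes a lipid droplet protein that inhibits the lipase ATGL. Hilpda was at 48.2 and 37.5 CPM untreated, at 45.3 and 44.1 under LPS alone, at 34.7 and 35.8 after 6-gingerol at 10 µM, at 27.6 and 34.9 after 6-gingerol at 30 µM, at 37.2 and 38.1 after 6-shogaol at 10 µM, and at 17.6 and 15.4 after 6-shogaol at 30 µM. The 30 µM 6-shogaol libraries were at 17.6 CPM or less and all others at 27.6 CPM or more. Hilpda fell against LPS from 44.7 ± 0.849 to 16.51 ± 1.52 CPM, to a fold of 0.369 (log2 fold change -1.44, SE 0.14, edgeR adjusted p = 3.97e-06). Ndrg1 (chr15:66929318-66969640, - strand), a growth-restraining stress protein, was highest without treatment. Ndrg1 was at 73.3 and 87.6 CPM untreated, at 59.7 and 49.6 under LPS alone, at 64.8 and 57.0 after 6-gingerol at 10 µM, at 58.7 and 56.3 after 6-gingerol at 30 µM, at 56.1 and 62.0 after 6-shogaol at 10 µM, and at 29.2 and 23.6 after 6-shogaol at 30 µM. It fell with LPS (log2 fold change -0.56, SE 0.13, edgeR adjusted p = 0.00966) and further with 30 µM 6-shogaol against LPS (log2 fold change -1.05, SE 0.14, edgeR adjusted p = 5.94e-05). The Ndrg1 call for LPS was lost without the second untreated library (-0.40, adjusted p = 0.0786) or the second LPS library (-0.43, adjusted p = 0.163), and the other was kept under every alternative.

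Vegfa (chr17:46016993-46032369, - strand) encodes the main growth factor of blood vessels. Vegfa was at 115 and 121 CPM untreated, at 109 and 109 under LPS alone, at 102 and 103 after 6-gingerol at 10 µM, at 109 and 104 after 6-gingerol at 30 µM, at 123 and 125 after 6-shogaol at 10 µM, and at 74.1 and 72.3 after 6-shogaol at 30 µM. The replicates lay close together, and the 30 µM 6-shogaol pair was separate from and below the other 10 libraries. Vegfa fell against LPS (log2 fold change -0.57, SE 0.086, edgeR adjusted p = 0.000209). Ankrd37 (chr8:45996902-46005707, - strand) encodes an ankyrin-repeat protein whose promoter HIF-1 binds. Ankrd37 was at 22.8 and 20.0 CPM untreated, at 20.6 and 18.0 under LPS alone, at 15.7 and 19.2 after 6-gingerol at 10 µM, at 14.3 and 19.2 after 6-gingerol at 30 µM, at 22.3 and 20.3 after 6-shogaol at 10 µM, and at 11.7 and 8.62 after 6-shogaol at 30 µM. Its counts were the lowest of the tested members, and the 30 µM 6-shogaol libraries were again below all others. Ankrd37 fell against LPS (log2 fold change -0.93, SE 0.18, edgeR adjusted p = 0.00142). The Vegfa and Ankrd37 calls were kept under every alternative, but on the authors' normalized table the Vegfa value was smaller (-0.37, limma-trend adjusted p = 0.0212). The last 2 members, Mxi1 (an antagonist of MYC) and Kdm3a (a histone demethylase), were called in none of the comparisons. With 30 µM 6-shogaol their values against LPS were -0.11 (95% interval -0.30 to 0.08, edgeR adjusted p = 0.408) and -0.23 (95% interval -0.49 to 0.04, edgeR adjusted p = 0.214), with both libraries below both LPS libraries for each gene. The same held for 13 of 31 members and 32.5% of all genes, and the reverse for 5 members and 32.3%.

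**Figure D3:**
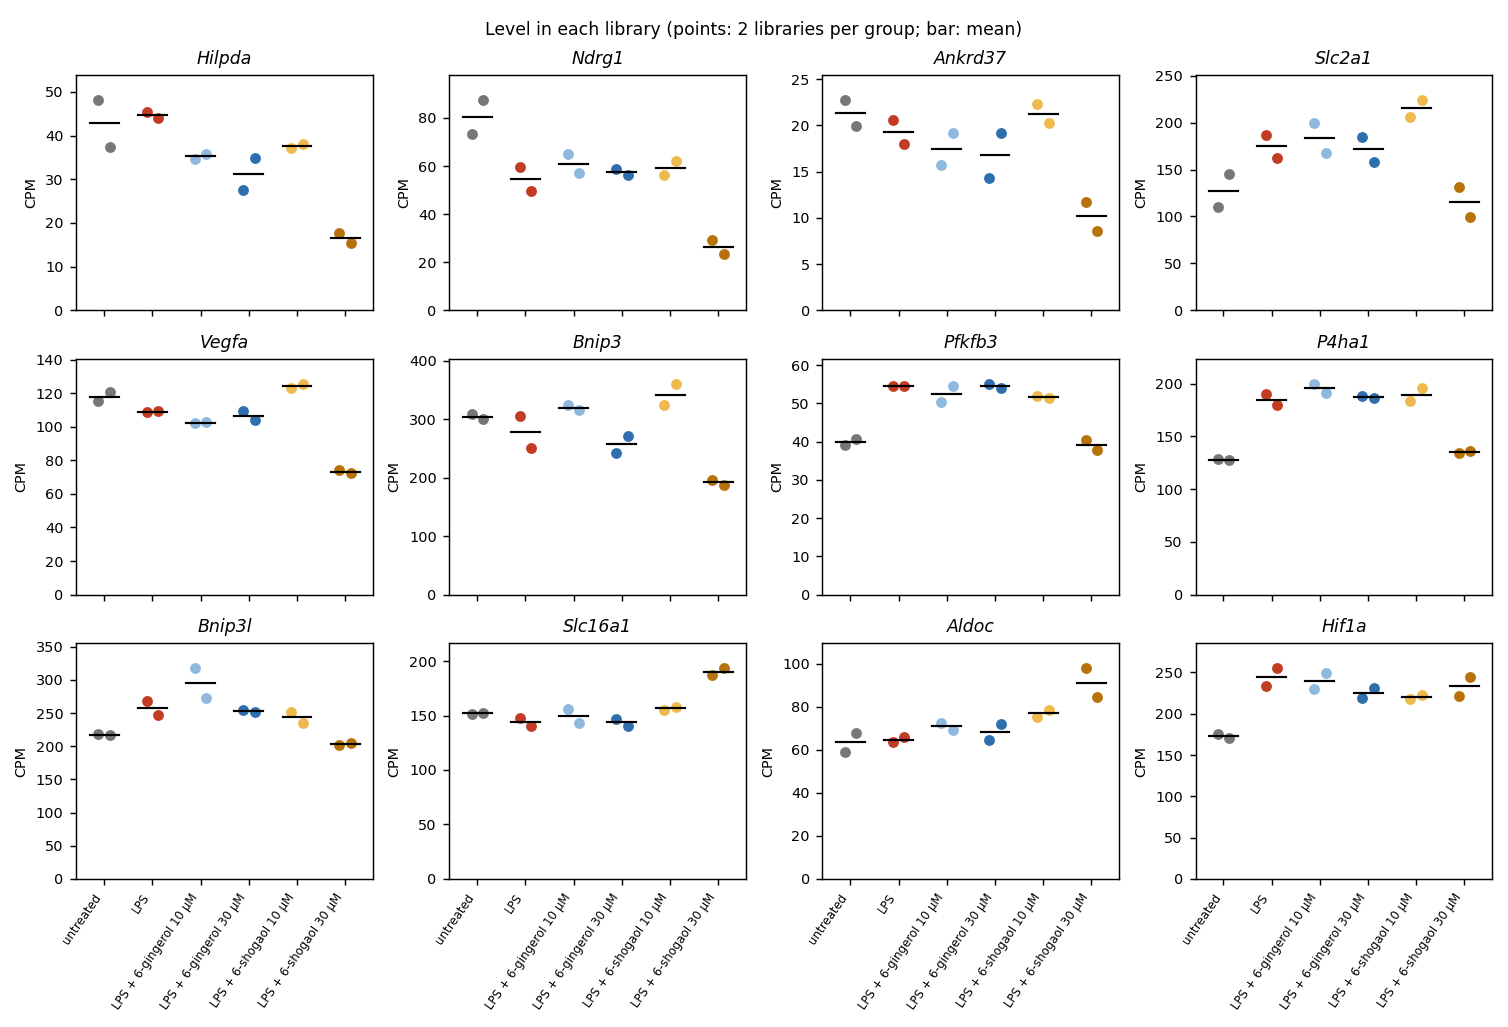
Level (CPM, linear axis from 0) in each library of the 11 members called between LPS with 30 µM 6-shogaol and LPS alone, and of Hif1a, by group on the horizontal axis; points are the 2 libraries of a group and the bar is their mean. Hilpda, Ndrg1, Ankrd37, Vegfa, Bnip3 and Bnip3l are lowest with 30 µM 6-shogaol, Pfkfb3 and P4ha1 are at a level near that of untreated cells, and Slc16a1 and Aldoc are highest.

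The 30 µM 6-shogaol libraries were also compared with the level in untreated cells. That level is from a separate group, not from the same cells before treatment. Of 31 members 7 were lower and 5 higher, where 12.1% of all genes were lower and 13.3% higher. Ndrg1 (-1.61, edgeR adjusted p = 9.72e-07), Hilpda (-1.37, edgeR adjusted p = 6.67e-06), Ankrd37 (-1.07, edgeR adjusted p = 0.000441), Vegfa (-0.69, edgeR adjusted p = 3.96e-05, and -0.46 on the authors' normalized table), Bnip3 (-0.66, edgeR adjusted p = 0.000544), Egln3 (-0.58, edgeR adjusted p = 0.00293) and Egln1 (-0.55, edgeR adjusted p = 0.00854) were below it. The Egln3 call was lost without the second 30 µM 6-shogaol library (-0.42, adjusted p = 0.0647), and that of Egln1 without the second untreated library (-0.31, adjusted p = 0.11) or the second 30 µM 6-shogaol library (-0.40, adjusted p = 0.127). Aldoc (0.52, edgeR adjusted p = 0.00232), Hif1a, Hk1, Pgam1 and Slc16a1 (0.32, edgeR adjusted p = 0.0136) were above the untreated level. Slc16a1 lost its call without the second 30 µM 6-shogaol library (0.32) and with the compared groups fitted alone (0.32, edgeR adjusted p = 0.121). Pfkfb3 differed from untreated by -0.03 (95% interval -0.23 to 0.18, edgeR adjusted p = 0.866) and Slc2a1 by -0.14 (95% interval -0.47 to 0.18, edgeR adjusted p = 0.532).

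With 6-gingerol, no member passed the edgeR test against LPS, and none of the 12705 genes did at either dose (0.0%). At an unadjusted p under 0.05 the test gave 1 member at 10 µM and 1 at 30 µM, in both cases Hilpda, against 1.91% and 1.49% of all genes. DESeq2 and limma-voom called none. Hilpda was at 45.3 and 44.1 CPM with LPS, 34.7 and 35.8 with 10 µM and 27.6 and 34.9 with 30 µM 6-gingerol, below both LPS libraries in all 4. Its log2 fold changes were -0.34 (95% interval -0.63 to -0.05, edgeR adjusted p = 1.0) and -0.51 (95% interval -0.80 to -0.23, edgeR adjusted p = 1.0). At 30 µM Hilpda was called when no filter on low counts was used (-0.53, adjusted p = 0.0451). Both contrasts share the LPS libraries. Over all 31 members the 95% intervals ran from -0.63 to 0.56 at 10 µM and from -0.80 to 0.36 at 30 µM.

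With 10 µM 6-shogaol most members were above their LPS level, but none passed the edgeR test, where 0.638% of all genes were called. Both libraries lay above both LPS libraries for 17 of 31 members, against 26.0% of all genes, and below them for 3, against 27.2%. The median log2 fold change was 0.14 over the members, 0.21 over the 18 of glycolysis and -0.001 over all genes. At an unadjusted p under 0.05 there were 10 members, against 10.8% of all genes, all of them higher. The largest were Egln1 at 0.50 (95% interval 0.21 to 0.79, edgeR adjusted p = 0.158), Egln3 at 0.48 (95% interval 0.22 to 0.74, edgeR adjusted p = 0.119), Pkm at 0.39, Gpi1 at 0.38 and Pdk1 at 0.37. DESeq2 called 1 member, Egln3 (0.48, adjusted p = 0.0428), and limma-voom none. When the LPS and 10 µM 6-shogaol libraries were fitted alone, 9 members were called, all higher, with Egln1 at 0.51, adjusted p = 0.000912 and Pfkl at 0.36, adjusted p = 0.00745. Calls rose over all genes in that fit as well, to 970 of 12281 (338 higher), from 81 of 12705 with all groups fitted. When only the untreated libraries were left out, 3 members were called, and 166 of 12588 genes.

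**Figure D4:**
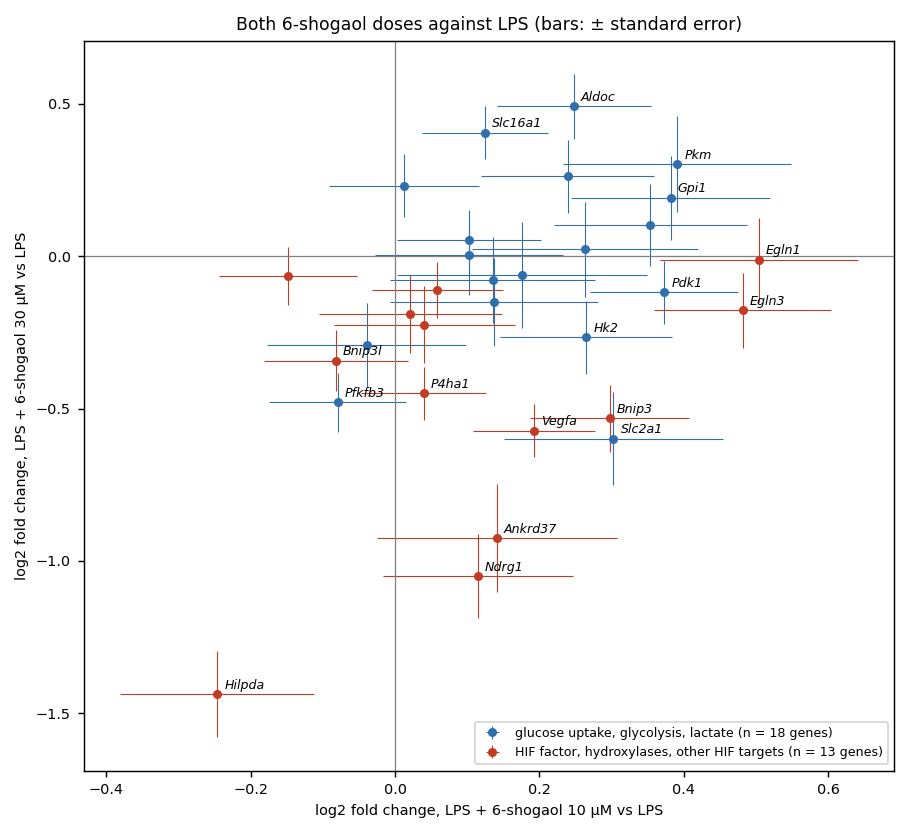
Log2 fold change against LPS of each tested member with 10 µM (horizontal axis) and 30 µM 6-shogaol (vertical axis), with bars of ± the standard error; blue marks glucose uptake, glycolysis and lactate (18 genes) and red the HIF factor, hydroxylases and other targets (13 genes). All 13 red points lie below 0 on the vertical axis, and 26 of 31 points lie above 0 on the horizontal one, which shares its LPS libraries with the other axis.

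From 10 to 30 µM 6-shogaol, 12 of 31 members fell and 1 rose, where 9.54% of all genes were lower and 9.85% higher. With library totals as the scale, 1434 genes were lower and 870 higher in this contrast, against 1212 and 1251 with TMM. The members that fell held all 9 that were called lower against LPS except Bnip3l, and added Hk2, Pdk1, Egln1 and Egln3. The step was -1.19, edgeR adjusted p = 4.76e-05 for Hilpda, -1.17, edgeR adjusted p = 4.01e-05 for Ndrg1, -1.07, edgeR adjusted p = 0.000738 for Ankrd37 and -0.90, edgeR adjusted p = 0.000939 for Slc2a1. It was -0.83, edgeR adjusted p = 0.000134 for Bnip3, -0.77, edgeR adjusted p = 2.92e-05 for Vegfa, -0.49, edgeR adjusted p = 0.00125 for P4ha1 and -0.40, edgeR adjusted p = 0.0093 for Pfkfb3. Slc2a1, Hk2, Bnip3 and Vegfa, 4 of 31 members, were above LPS in both 10 µM libraries and below it in both 30 µM libraries with the doses differing, a pattern met by 2.12% of all genes, and its mirror image by 2.74%. Pfkfb3 lost the call without the first 10 µM 6-shogaol library (-0.40, adjusted p = 0.0629), the second 10 µM 6-shogaol library (-0.41, adjusted p = 0.0658) or the second 30 µM 6-shogaol library (-0.36, adjusted p = 0.0915). Slc16a1 rose (0.28, edgeR adjusted p = 0.0356). That call was lost without the first (0.27) or second (0.29) 10 µM 6-shogaol library, or the first (0.30) or second (0.26) 30 µM 6-shogaol library. It was also lost with library totals as the scale (0.21, edgeR adjusted p = 0.124) and with no filter on counts (0.28, edgeR adjusted p = 0.0863). On the authors' normalized table it was lost as well (0.27, limma-trend adjusted p = 0.0643). Without the second 10 µM 6-shogaol library 8 members were called in place of 13.

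6-Shogaol is the dehydration product of 6-gingerol, with an α,β-unsaturated ketone in place of a β-hydroxy ketone, and the compounds were compared at both matched doses, 2 pairs in all. At 30 µM, 10 members were lower and 2 higher with 6-shogaol than with 6-gingerol, where 12.4% of all genes were lower and 12.5% higher. The largest differences were Ndrg1 at 58.7 and 56.3 CPM with 6-gingerol and 29.2 and 23.6 with 6-shogaol (log2 fold change -1.13, SE 0.14, edgeR adjusted p = 3.34e-05), and Hilpda at 27.6 and 34.9 and 17.6 and 15.4 CPM (log2 fold change -0.92, SE 0.14, edgeR adjusted p = 0.000289). For both genes the 2 pairs of libraries did not overlap. Both 6-shogaol libraries lay below both 6-gingerol libraries for 13 of 31 members and 30.9% of all genes, and above them for 5 members and 31.0%. Vegfa (-0.54, edgeR adjusted p = 0.000332), P4ha1 (-0.47, edgeR adjusted p = 0.0011), Pfkfb3 (-0.48, edgeR adjusted p = 0.00196) and Slc16a1 (0.41, edgeR adjusted p = 0.00341) also differed under every alternative, with Vegfa at -0.34 on the authors' normalized table (limma-trend adjusted p = 0.0328).

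The other 6 calls between the compounds at 30 µM were each lost when a single library was left out. Hk2, Bnip3 and Bnip3l were also lost on the authors' normalized table (limma-trend adjusted p = 0.076, 0.0504 and 0.0915), where 9 members were called. With library totals as the scale Hk2 was lost (edgeR adjusted p = 0.0508), and with no filter on counts Bnip3l (edgeR adjusted p = 0.0576). Slc2a1 (-0.57, edgeR adjusted p = 0.0128) was lost without the first 30 µM 6-gingerol library (-0.46, adjusted p = 0.109) or the second 30 µM 6-shogaol library (-0.38, adjusted p = 0.164). Ankrd37 (-0.72, edgeR adjusted p = 0.00809) was lost without the second 30 µM 6-gingerol library (-0.50, adjusted p = 0.105) or the second 30 µM 6-shogaol library (-0.51, adjusted p = 0.115). Bnip3 (-0.42, edgeR adjusted p = 0.0129) was lost without the second 30 µM 6-gingerol library (-0.33, adjusted p = 0.116) or the second 30 µM 6-shogaol library (-0.38, adjusted p = 0.0951). Aldoc (0.42, edgeR adjusted p = 0.0102), higher with 6-shogaol, was lost without the first 30 µM 6-gingerol library (0.34, adjusted p = 0.114) or the first 30 µM 6-shogaol library (0.31, adjusted p = 0.106). Hk2 (-0.35, edgeR adjusted p = 0.0424) was lost without the first 30 µM 6-gingerol library (-0.29, adjusted p = 0.221), the second 30 µM 6-gingerol library (-0.41, adjusted p = 0.0716) or the second 30 µM 6-shogaol library (-0.22, adjusted p = 0.342), and Bnip3l (-0.32, edgeR adjusted p = 0.0302) when any 1 of the 4 libraries was left out (adjusted p from 0.1 to 0.127). Without the second 30 µM 6-shogaol library 7 members were called in place of 12. Of the 19 members not called, Gapdh differed by 0.03 (95% interval -0.25 to 0.30, edgeR adjusted p = 0.911) and Hif1a by 0.05 (95% interval -0.15 to 0.25, edgeR adjusted p = 0.746).

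At 10 µM the edgeR test called no member between 6-shogaol and 6-gingerol, where 0.638% of all genes were called and 8 members had an unadjusted p under 0.05, against 14.6% of all genes. Egln3 was at 86.1 and 77.5 CPM with 6-gingerol and 109 and 115 with 6-shogaol, a difference of 0.46 (95% interval 0.20 to 0.72, edgeR adjusted p = 0.131). Egln1 was at 44.2 and 49.2 and 65.7 and 66.1 CPM, a difference of 0.50 (95% interval 0.21 to 0.79, edgeR adjusted p = 0.136), and Vegfa at 102 and 103 and 123 and 125 CPM, 0.28 (95% interval 0.10 to 0.46, edgeR adjusted p = 0.174). For these 3 genes both 6-shogaol libraries lay above both 6-gingerol libraries. In all, that held for 13 of 31 members and 23.5% of all genes, and the reverse for 3 members and 26.4%. DESeq2 called Egln3 (0.46, adjusted p = 0.0435) and limma-voom none. Over the 31 members the 95% intervals of the difference ran from -0.49 to 0.79.

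Further genes of the same pathways, from lists that leave out the members, were counted in the same fit. Of 27 other tested HIF targets, 9 fell and 3 rose with 30 µM 6-shogaol against LPS, where 12.8% of all genes fell and 12.6% rose, and the median was -0.18. Loxl2, a lysyl oxidase, fell (-2.02, edgeR adjusted p = 0.000603) after a rise with LPS (2.89, edgeR adjusted p = 6.04e-05). Ddit4, an inhibitor of mTORC1 (-0.996, edgeR adjusted p = 0.00395), also fell, as did Insig2, a sterol regulator in the endoplasmic reticulum (-0.83, edgeR adjusted p = 0.000243). Gbe1, the glycogen branching enzyme, rose (0.73, edgeR adjusted p = 9.49e-05). Insig2 and Gbe1 were the only 2 of these genes called with 10 µM 6-shogaol against LPS, lower and higher (-0.59, edgeR adjusted p = 0.0498, and 0.55, edgeR adjusted p = 0.0153). With LPS alone 5 rose and 3 fell, where 7.66% of all genes rose and 4.16% fell.

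Of 18 tested genes that regulate HIF, none passed the edgeR test with LPS. With 30 µM 6-shogaol against LPS 3 rose and 1 fell, a share of calls near the 25.4% of all genes. Epas1, which encodes HIF-2α (0.47, edgeR adjusted p = 0.0236), and the ubiquitin ligase subunits Rbx1 (0.41, edgeR adjusted p = 0.0389) and Cul2 (0.33, edgeR adjusted p = 0.0351) rose, and Siah1a, a ligase that acts on the EGLN proteins (-0.63, edgeR adjusted p = 0.00171), fell. Of 12 other tested glycolysis genes, Pfkm (0.54, edgeR adjusted p = 0.00158) and Eno3 (0.47, edgeR adjusted p = 0.031), muscle forms of phosphofructokinase and enolase, rose, and the lysosomal transporter Slc2a6 fell (-0.71, edgeR adjusted p = 0.0007) after a rise with LPS (0.74, edgeR adjusted p = 0.000722). These 3 of 12 calls were likewise near the share of all genes.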

How the data were processed

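RNA was measured in 12 BV2 libraries (6 groups of 2). Per the labels' protocols, TRIzol RNA was made into stranded mRNA libraries and sequenced in paired-end mode. Per the file headers, each deposited table is an RSEM gene table, and its expected count (estimated reads per gene, 19.4% of values above 0 not whole within 0.001) was used for every test. Its TPM column, also made by the authors, was used for shares among related genes. Gene length and effective length in the deposited tables gave only the mean fragment length, 222 to 251 bases. The authors also deposited a normalized signal for 18013 genes, whose normalization is not given in the sources used here, and it entered 1 alternative. The submitters' processing notes name GRCm38, DESeq2 1.44.0, R 4.4.2, RSEM 1.3.3, STAR 2.7.11b, FastQC 0.12.1 and Trimmomatic 0.39, without the role of each.

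Expected counts were rounded, filtered with filterByExpr (12705 of 43432 genes kept), TMM-scaled and fitted with 6 group means over all 12 libraries in edgeR 4.0.16 (R 4.3.3), quasi-likelihood F test, 2-sided, with Benjamini-Hochberg adjustment over all genes in each of 9 contrasts. The common biological coefficient of variation was 9.45%, with 6 residual degrees of freedom. Alternatives were DESeq2's size factors, library totals, no count filter, DESeq2 1.42.0, limma-voom and limma-trend (limma 3.58.1), the compared groups alone, no untreated libraries, a replicate block, a fragment length covariate, and each library left out. Positions come from GENCODE M21 (GRCm38) and promoter windows from RefSeq (GRCm38.p6). Values per library are given for members called in at least 1 contrast and for the 3 others of highest mean CPM, with ranges or single values for the rest (those of Ldha, Pgk1, Higd1a and the pairs named in captions were added after their values were seen), and other genes are named only where called, at most 4 per list and contrast, and 1 gene that the rule names is not reported here. Pgls is named outside that rule, as an enzyme that was not called. Members and lists were chosen with earlier results of these data known.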

Additional observations from a re-analysis of the deposited data

Results flagged for a closer look

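For 4 members the libraries of the 2 doses of 6-shogaol lay on opposite sides of the LPS libraries. Both 10 µM libraries lay above both LPS libraries, both 30 µM libraries lay below them, and the doses differed by the edgeR test. The log2 fold change of 30 against 10 µM was -0.90 for Slc2a1, -0.53 for Hk2, -0.83 for Bnip3 and -0.77 for Vegfa. Against LPS, Slc2a1 was 0.30 at 10 µM and -0.60 at 30 µM, Hk2 0.26 and -0.27, Bnip3 0.30 and -0.53, and Vegfa 0.19 and -0.57. Against LPS none of these 4 was called at 10 µM, and Hk2 was not called at 30 µM either. The 30 µM call of Slc2a1 was lost without the first LPS library (-0.49) or the second 30 µM 6-shogaol library (-0.41). That of Bnip3 was lost without the first LPS library (-0.38). The same pattern was met by 269 of the 12705 genes. For Hk2 the difference between doses lost its call without the second 10 µM 6-shogaol library (-0.47, adjusted p = 0.0807) or the second 30 µM 6-shogaol library (-0.40, adjusted p = 0.0985).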

How the results depend on the processing

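Of 54 called values of single members, 31 kept their call under every alternative, 23 lost it under at least 1, and none changed direction. Kept were 2 of 6 for LPS against untreated, 8 of 11 for 30 µM 6-shogaol against LPS, 6 of 12 against 30 µM 6-gingerol, 8 of 13 against 10 µM 6-shogaol and 7 of 12 against untreated. Most losses followed from leaving out 1 library, the second 30 µM 6-shogaol library the most, with 15. The number of members called, over all libraries left out in turn, ran from 2 to 6 for LPS, 8 to 11 for 30 µM 6-shogaol against LPS, 7 to 10 against 30 µM 6-gingerol, 8 to 12 against 10 µM 6-shogaol, 9 to 13 against untreated, and was 0 throughout for both 6-gingerol doses and 10 µM 6-shogaol. Where an arm kept 1 library, it was assumed to vary like the other groups. For 10 µM 6-shogaol against LPS, with 0 called, the count was 3 with no filter on counts, 1 with DESeq2, 9 with the compared groups alone and 3 without the untreated libraries. Over all genes these settings called 311 of 20036, 113 of 20036, 970 of 12281 and 166 of 12588, against 81 of 12705 in the main fit. For 10 µM 6-shogaol against 10 µM 6-gingerol, also 0, these settings gave 3, 1, 2 and 2 members. Over all genes they gave 419 of 20036, 167 of 20036, 152 of 12254 and 258 of 12588, against 81 of 12705. For 30 µM 6-gingerol, 1 member was called with no filter, and 27 of 20036 genes. The cause was not tested. For LPS against untreated, library totals as the scale gave 785 genes higher and 688 lower against 973 and 528, and they shifted the median of all genes in 10 µM 6-shogaol against 10 µM 6-gingerol from -0.006 to 0.105.

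Replicate numbers are shared by the groups, but same-numbered libraries did not deviate together (correlations of deviations from -0.5 to 0.29, median 0.05, over 15 pairs of groups). With the replicate number as a block, the members called were 6 for LPS, 11 for 30 µM 6-shogaol against LPS, 12 against 30 µM 6-gingerol, 13 against 10 µM 6-shogaol and 13 against untreated, where Kdm3a was added (-0.33, adjusted p = 0.0373), and it changed no other call. The 95% intervals of the log2 fold changes had a median half-width of 0.29 over all 12705 genes tested in each comparison. The parts of depth and of the spread between replicates in that width were not separated.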

Other observations

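The mRNAs of a pathway that branches from glycolysis, and of pyruvate oxidation, which follows it, were measured in the same libraries. Of the 8 genes of the pentose phosphate pathway, which makes NADPH and ribose, 5 rose and none fell with 30 µM 6-shogaol against LPS, where 12.6% of all genes rose, with a median log2 fold change of 0.37 against -0.002 over all genes. Pgd and G6pdx of its oxidative arm rose most, and Pgls of the same arm was not called (0.12, edgeR adjusted p = 0.557). Pgd rose from 134 to 257 CPM (log2 fold change 0.94, SE 0.12, edgeR adjusted p = 3.76e-05) and G6pdx from 235 to 405 CPM (log2 fold change 0.78, SE 0.10, edgeR adjusted p = 5.75e-05). H6pd, the form in the endoplasmic reticulum (0.49, edgeR adjusted p = 0.0251), and Tkt, transketolase (0.40, edgeR adjusted p = 0.0451), rose as well. None of the 8 passed the edgeR test with 10 µM 6-shogaol or with either dose of 6-gingerol against LPS, and G6pdx alone of them rose with LPS (0.36, edgeR adjusted p = 0.0297).

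Of 30 tested genes of pyruvate oxidation and the tricarboxylic acid cycle, 5 rose and 1 fell with 30 µM 6-shogaol against LPS, where 12.6% of all genes rose and 12.8% fell, so the list's share of calls was no higher than that of all genes. The median was 0.15. Ogdh, the first subunit of 2-oxoglutarate dehydrogenase (0.75, edgeR adjusted p = 6.93e-05), and Idh3a, the catalytic subunit of NAD-dependent isocitrate dehydrogenase (0.67, edgeR adjusted p = 0.000365), rose most. Pdp2 (0.50, edgeR adjusted p = 0.0165) and Pdp1 (0.43, edgeR adjusted p = 0.0358), the phosphatases that undo the action of the Pdk kinases on pyruvate dehydrogenase, also rose. With LPS, where 7.66% of all genes rose and 4.16% fell, 1 rose and 1 fell, Pcx, pyruvate carboxylase (0.51, edgeR adjusted p = 0.0158), and Idh3g (-0.33, edgeR adjusted p = 0.0483).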
